A study of Rattus norvegicus with 9 samples.

Results

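Cadherins and protocadherins, the calcium-dependent adhesion receptors that hold cells of a kind together, were followed across 3 types of cultured rat fibroblasts. The members are the genes whose symbol is Cdh followed by a number or begins with Pcdh, without *Cdh5* and *Cdh19*, which gave 68 of the 32883 genes in the deposited tables. Fibroblasts of the epineurium (Fb-Epn) and of the parenchyma (Fb-Par) were grown from the sciatic nerves of 2 male wild-type rats, and those of skin (Fb-Skn) from the abdominal skin of 1 other male wild-type rat, all 10 weeks of age. The epineurium is the outer sheath of a nerve, and the parenchyma is what remains inside when that sheath has been pulled away by hand. Cells were dissociated enzymatically, plated without coating and passaged 1 time, and 3 libraries of each type were sequenced. The medium was replaced soon after seeding, and no cell type was selected by sorting. By immunolabelling, the paper found Col1 and Thy1 in every cell and only negligible label for S100b and Cd31. The sources used here do not say how the libraries of a type were divided among animals or flasks. The p-values therefore measure only the spread between these libraries. The skin came from another animal than the nerves, so skin origin and animal cannot be told apart.

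Classical cadherins (types I and II) bind cadherins on the neighbouring cell with their outer domains and reach the actin cytoskeleton through catenins. *Cdh13* (T-cadherin) has no cytoplasmic tail and sits in the membrane on a lipid (GPI) anchor, and delta protocadherins carry longer ectodomains with tails that do not bind beta-catenin. The clustered protocadherins lie in tandem as alpha, beta and gamma groups. Each variable exon has its own promoter, and in the alpha and gamma groups it is spliced to constant exons shared by the group, so that a cell shows a combination of isoforms on its surface. In nerve, cadherins act in the contacts of Schwann cells with axons and with each other, and mesenchymal cells are typically marked by *Cdh2* and *Cdh11* and not by *Cdh1*.

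The library totals lay between 10084584 and 12310506 counts. Levels are given as TPM (a share of all transcripts that corrects for gene length), and differences as fold changes from edgeR's quasi-likelihood test on the counts, with Benjamini-Hochberg adjustment over the 13273 genes that passed a filter on low counts. A gene was called at an adjusted p under 0.01, and DE where its log2 fold change also lay above 2 or below -2. Of the 68 members, 47 passed the filter. The other 21 comprised 7 at 0 counts in all 9 libraries (*Cdh7*, *Cdh8*, *Cdh9*, *Cdh12*, *Cdh16*, *Cdh22* and *Pcdhb1*) and 14 that never exceeded 11 counts in a library. On the TPM scale the median tested gene was 0.14 (log2) higher in either nerve type than in Fb-Skn, against 0.00 and -0.01 in the edgeR fit, so small differences from skin can change sign between the scales. This was the case for 9 differences of members, 0 of which were called.

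Fibroblast markers were abundant in every library, with the 6 listed genes summing to 25820 to 31200 TPM. Listed Schwann cell genes summed to 179.8 to 193.1 TPM in Fb-Epn, 235.8 to 240.9 in Fb-Par and 10.5 to 13.2 in Fb-Skn, where *Sox10* and *Erbb3* were at 0. Listed macrophage genes summed to 179.6 to 194.9, 41.0 to 44.5 and 8.82 to 10.7 TPM, and mural cell genes, among them *Cspg4* and *Notch3*, to 18.1 to 23.6, 157.8 to 167.4 and 26.0 to 29.0 TPM in the same order of types. Perineurial genes summed to 210.6 to 215.7, 87.1 to 94.7 and 113.4 to 125.2 TPM, led by *Slc2a1* with means of 144.7, 34.9 and 69.0 TPM. *Itgb4* and *Tjp1* of this list were also highest in Fb-Epn. *Cldn1* was not, with 3, 0 and 2 counts in Fb-Epn, 4, 7 and 5 in Fb-Par and 0 in each Fb-Skn library. Endothelial genes summed to at most 16.6, 14.0 and 6.31 TPM. Epithelial genes stayed at or under 3.20 TPM and the myogenic list at or under 1.90, with *Myod1*, *Myf5*, *Pax7* and *Myog* at 0, and melanocyte genes stayed between 6.86 and 14.4 TPM with *Tyr* at 0. The Schwann cell list thus had the order Fb-Par, Fb-Epn, Fb-Skn, as did many members described here, and in such bulk libraries fewer cells of a type and less RNA per cell cannot be told apart. The part of these cell types in the differences of the members was not tested.

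The most abundant members differed between the types. *Pcdhgc3* led in Fb-Epn with 100.8 ± 3.41 TPM (mean ± SD, n = 3 here and throughout), whereas *Cdh13* led in Fb-Par with 364.9 ± 2.93 TPM and in Fb-Skn with 137.4 ± 4.55 TPM. The *Pcdhgc3* row holds more than a variable exon, as described below, so its level may pool reads of several gamma isoforms. *Cdh11* was the second most abundant member in every type, at 85.1 ± 1.08 TPM for Fb-Epn, 127.2 ± 1.11 for Fb-Par and 79.5 ± 5.19 for Fb-Skn. The members together summed to 517.6 ± 16.2, 787.8 ± 11.2 and 443.8 ± 23.3 TPM. Members with a mean of at least 10 TPM numbered 11 for Fb-Epn, 11 for Fb-Par and 6 for Fb-Skn, and those at 0 counts in all libraries of a type numbered 9, 8 and 18.

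**Figure D1:**
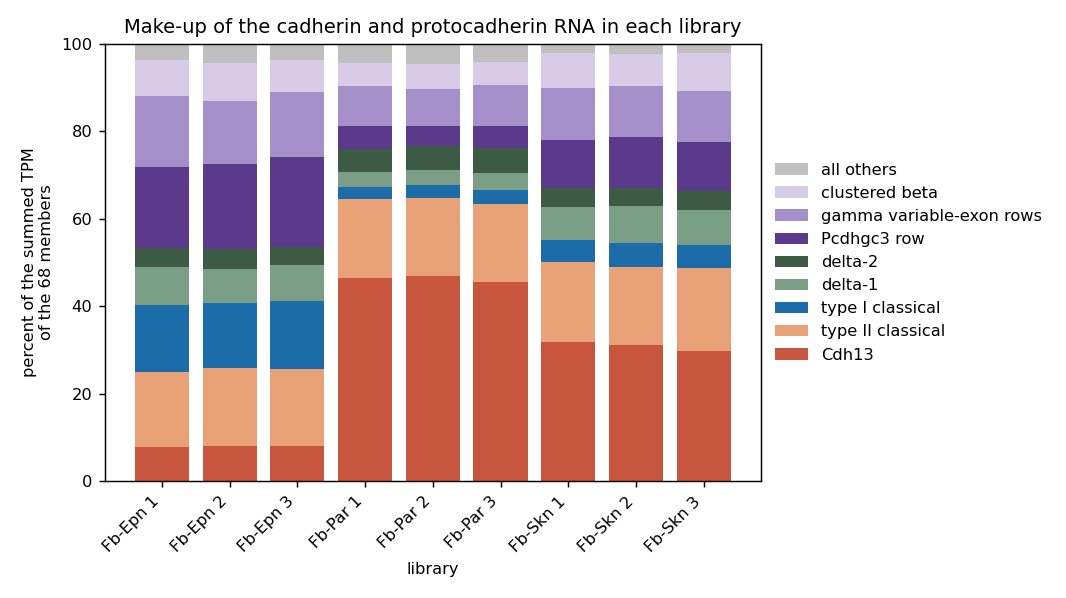
Each bar is 1 library and shows, in percent of the summed TPM of the 68 members, the share of *Cdh13*, the type I and type II classical cadherins, the delta protocadherins and the clustered protocadherins. *Cdh13* took 7.93 ± 0.199% for Fb-Epn, 46.3 ± 0.656% for Fb-Par and 31.0 ± 1.06% for Fb-Skn, and the 3 libraries of a type were nearly alike.

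The make-up of the cadherin RNA was read as shares of this sum. *Cdh13* alone made up 46.3 ± 0.656% of it in Fb-Par. The type I classical cadherins took 15.3 ± 0.307% for Fb-Epn, 2.94 ± 0.210% for Fb-Par and 5.25 ± 0.225% for Fb-Skn. The clustered gamma group took 34.6 ± 0.800%, 14.0 ± 0.822% and 23.1 ± 0.348%. The type II share, in contrast, was 17.5 ± 0.344%, 18.0 ± 0.117% and 18.3 ± 0.466%. A share also falls where another member rises, and the large *Cdh13* level lowers all other shares in Fb-Par. In summed TPM, the type I cadherins were at 79.2, 23.2 and 23.3 and the gamma group at 179.1, 110.3 and 102.4. The type II cadherins were at 90.6, 141.4 and 81.25 TPM.

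Between Fb-Epn and Fb-Par, 6 of the 47 tested members were higher in Fb-Epn, where 20.2% of all tested genes were, and 10 were lower, where 18.6% were. DE members were *Cdh3*, higher in Fb-Epn (1 member, against 4.09% of all tested genes), and *Cdh13* and *Cdh20*, lower in Fb-Epn (2 members, against 2.39%). Against Fb-Skn, 15 members were higher in Fb-Epn (23.0% of all tested genes) and 3 were lower (20.9%). Of these, 6 were DE and higher in Fb-Epn (6.22% of all tested genes), namely *Cdh6*, *Cdh20*, *Cdh23*, *Pcdh1*, *Pcdh9* and *Pcdh17*. None was DE and lower (2.22%). Fb-Par had 16 members higher than Fb-Skn (23.2%) and 4 lower (22.4%). Here 9 were DE and higher (5.86%), the 6 just named with *Pcdh19*, *Pcdh20* and *Pcdhb11*, and 0 were DE and lower (2.67%). The shares of all tested genes are themselves so low that 0 of 47 lies close to them. These counts of 0 do not depend on the p threshold, since no member's log2 fold change lay below -2. The lowest was -1.88 in Fb-Epn and -1.59 in Fb-Par against Fb-Skn by edgeR. It was -1.87 and -1.58 by DESeq2, and -1.72 and -1.12 by limma on log2(TPM + 1). The median log2 fold change of the tested members was -0.22, 0.48 and 0.39 in the 3 comparisons, against 0.00, 0.00 and -0.01 for all tested genes. With the members at 0 in Fb-Skn set to lower bounds, and *Cdh20* left out in Fb-Epn, the medians against Fb-Skn were 0.47 and 0.39. The comparisons share libraries in pairs and are not independent of each other.

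Of the DE members, 5 (*Cdh6*, *Cdh20*, *Cdh23*, *Pcdh9* and *Pcdh17*) were at 0 counts in every Fb-Skn library and passed the filter through the nerve libraries alone. For these the fold is given as a lower bound on the TPM scale, against a floor of 3 counts per library. The bounds use the mean of the nerve libraries and leave out its spread. Taken as bounds, 2 of the 6 DE members of Fb-Epn against Fb-Skn (*Cdh6* and *Pcdh1*) and 9 of the 9 of Fb-Par against Fb-Skn reached 4-fold. The *Pcdh17* bound in Fb-Par (4.22) is marginal, since the TPM scale places the median tested gene 0.14 (log2) higher there than in Fb-Skn. On the edgeR scale this bound could fall under 4.

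**Figure D2:**
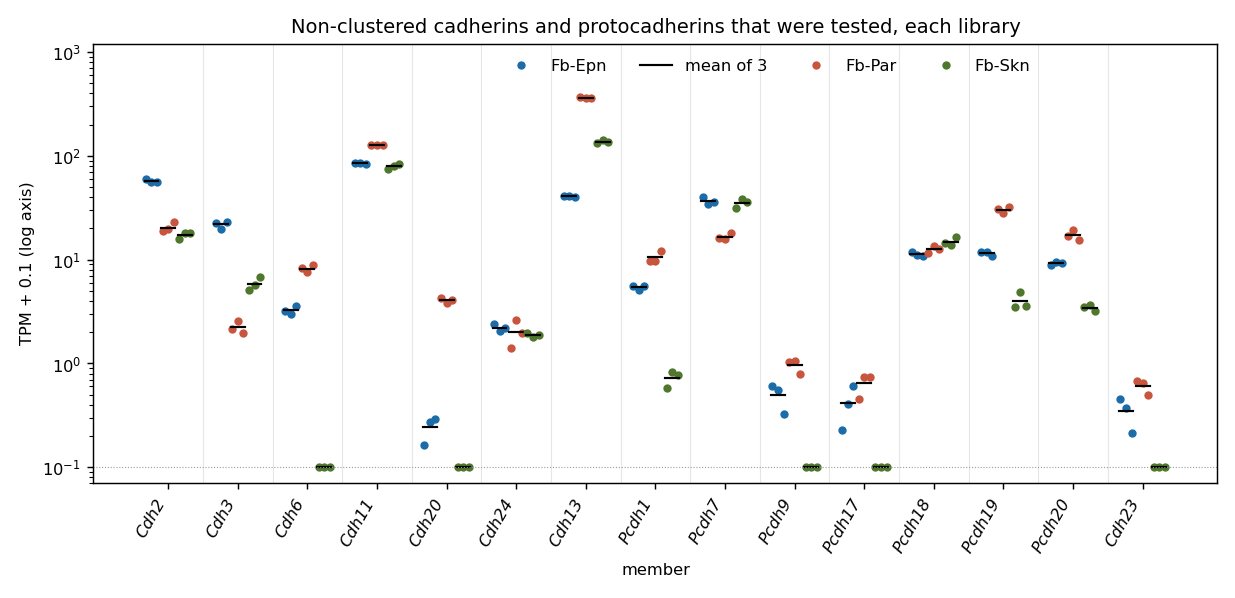
Points are the TPM of each library plus 0.1 on a log axis for the 15 non-clustered members that were tested, coloured by type, with a bar at the mean of 3 libraries. Points on the dotted line are at 0 counts, as for *Cdh6*, *Cdh20*, *Pcdh9*, *Pcdh17* and *Cdh23* in Fb-Skn.

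Among the type I classical cadherins, *Cdh2* (N-cadherin), the classical cadherin of neurons, Schwann cells and many mesenchymal cells (rn6 chr18:8146971-8360684, minus strand), was highest in Fb-Epn. Its level was 59.9, 56.0 and 55.7 TPM in the Fb-Epn libraries, 18.7, 19.5 and 22.8 in Fb-Par, and 15.6, 18.2 and 17.9 in Fb-Skn. Fb-Epn stood above both others with no overlap, by 1.51 ± 0.0727 (log2 fold change ± SE, adjusted p = 2.7e-10) over Fb-Par and by 3.02-fold (adjusted p = 1.6e-10) over Fb-Skn. Fb-Par and Fb-Skn did not differ beyond their spread on the edgeR scale (0.09 ± 0.0786, adjusted p = 0.35). *Cdh3* (P-cadherin), a cadherin of basal epithelial layers and placenta (chr19:38669230-38719677, plus strand), read 22.7, 19.6 and 23.1 TPM in Fb-Epn, 2.04, 2.48 and 1.86 in Fb-Par, and 5.06, 5.63 and 6.66 in Fb-Skn. All 3 types were separate, with Fb-Epn 10.3-fold above Fb-Par (3.37 ± 0.136, adjusted p = 3.5e-11) and 3.43-fold above Fb-Skn (adjusted p = 1.1e-08), and Fb-Par 3.01-fold below Fb-Skn (adjusted p = 4.0e-07). *Cdh1* (E-cadherin), the epithelial cadherin, had at most 6 counts in a library, *Cdh4* (R-cadherin) at most 5 and *Cdh15* (M-cadherin of muscle) at most 8, so that differences in them were not detectable at this depth.

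*Cdh13*, a regulator of vascular cells and neurite growth and a receptor for adiponectin (chr19:50848736-51972103, plus strand), differed between all 3 types. Its level was 41.5, 41.3 and 40.4 TPM in Fb-Epn, 368.2, 363.0 and 363.4 in Fb-Par, and 133.1, 142.2 and 136.8 in Fb-Skn. No 2 types overlapped. Fb-Epn was 8.82-fold below Fb-Par (-3.14 ± 0.0337, adjusted p = 4e-17) and 3.69-fold below Fb-Skn (adjusted p = 3.7e-15), and Fb-Par was 2.39-fold above Fb-Skn (adjusted p = 8.0e-14). The summed mural cell list had the same order, through its most abundant gene *Cspg4* (means of 8.48, 73.1 and 26.4 TPM). Its other 4 genes, *Rgs5*, *Kcnj8*, *Abcc9* and *Notch3*, were higher in Fb-Epn than Fb-Skn, the reverse of *Cdh13*. The part of this list in the result was not tested.

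The type II classical cadherins separated into *Cdh11* and *Cdh24*, present in all types, and *Cdh6* and *Cdh20*, found in nerve-derived libraries. *Cdh11* (OB-cadherin), the type II cadherin of mesenchyme and of fibroblast contacts (chr19:2393059-2551245, plus strand), read 86.3, 85.0 and 84.2 TPM in Fb-Epn, 128.3, 126.1 and 127.3 in Fb-Par, and 74.1, 79.8 and 84.5 in Fb-Skn. Fb-Par was higher than Fb-Epn by 1.48-fold (adjusted p = 1.3e-08) and than Fb-Skn by 1.44-fold (adjusted p = 2.4e-08), while Fb-Epn and Fb-Skn overlapped (-0.04 ± 0.0391, adjusted p = 0.42). *Cdh24* was near 2 TPM in every type, with no call in any comparison. *Cdh6* (K-cadherin), a cadherin of kidney and of neural crest (rn6 chr2:63101739-63166509, minus strand), had 37, 39 and 42 counts in Fb-Epn, 107, 84 and 103 in Fb-Par, and 0 in each Fb-Skn library. It was at least 12.5-fold higher in Fb-Epn and at least 32.1-fold higher in Fb-Par than Fb-Skn (adjusted p = 7.3e-08 and 3.4e-09), and Fb-Par was 2.55-fold above Fb-Epn (adjusted p = 8.7e-05). *Cdh20*, a close relative of *Cdh7* that also occurs in neural tissue (rn6 chr13:24823488-24913884, plus strand), had 71, 54 and 61 counts in Fb-Par, 1, 3 and 3 in Fb-Epn, and 0 in each Fb-Skn library. The Fb-Par libraries thus stood far above all others, by 25.9-fold over Fb-Epn (-4.70 ± 0.382 for Fb-Epn against Fb-Par, adjusted p = 4.5e-07) and by at least 20.3-fold over Fb-Skn (adjusted p = 1.1e-07). The call of *Cdh20* in Fb-Epn against Fb-Skn (adjusted p = 0.0077) rests on counts at or under the floor, no fold is given, and the call was lost under 12 of 18 alternatives. The other 7 type II members were untested, with *Cdh10* and *Cdh18* at 4 counts or fewer in any library.

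The sequences before the start of the pair of type II members at 0 counts in Fb-Skn and well counted in Fb-Par are shown to let the promoters be compared. They come from RefSeq on the GRCr8 assembly and run from 250 bases before the annotated start to 50 after it, on the gene's strand, with CG dinucleotides, the sites of DNA methylation, in capitals.
Cdh6 (chr2:63952238-63952537, minus strand): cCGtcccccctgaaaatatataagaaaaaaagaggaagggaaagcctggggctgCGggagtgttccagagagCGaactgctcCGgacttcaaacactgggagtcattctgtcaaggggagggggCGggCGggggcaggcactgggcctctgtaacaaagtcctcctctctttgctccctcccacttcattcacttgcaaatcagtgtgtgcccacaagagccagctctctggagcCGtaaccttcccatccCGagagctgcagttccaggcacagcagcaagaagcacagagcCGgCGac
Cdh20 (chr13:21515017-21515316, plus strand): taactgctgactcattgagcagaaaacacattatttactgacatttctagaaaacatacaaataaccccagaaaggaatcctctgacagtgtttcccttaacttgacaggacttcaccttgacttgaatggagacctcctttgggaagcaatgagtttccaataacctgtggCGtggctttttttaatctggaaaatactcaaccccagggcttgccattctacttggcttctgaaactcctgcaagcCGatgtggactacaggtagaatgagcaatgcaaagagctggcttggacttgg
The *Cdh6* window holds 10 CG dinucleotides at 57.3% G and C, and the *Cdh20* window 2 at 43.3%, while the median of all 33469 promoter windows is 7 at 51.7%. The windows of 3 other members at 0 in Fb-Skn ranged more widely, with 43 in *Cdh23*, 16 in *Pcdh17* and 5 in *Pcdh9*. The motif CAGGTG, the box bound by Snail and Zeb repressors, was searched on both strands and was found in neither printed window. It was held by 1 of 22 windows of non-clustered members and by 18.8% of all windows. A missing match says only that these letters are not in this window.

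Of the delta-1 protocadherins, *Pcdh1*, known from airway epithelium (chr18:31328919-31343797, minus strand), read 5.52, 5.04 and 5.46 TPM in Fb-Epn, 9.72, 9.59 and 12.1 in Fb-Par, and 0.477, 0.729 and 0.678 in Fb-Skn. The types did not overlap, and Fb-Par was 15.1-fold and Fb-Epn 7.73-fold above Fb-Skn (adjusted p = 7.4e-11 and 3.5e-09), with Fb-Par 1.95-fold above Fb-Epn (adjusted p = 2.0e-05). *Pcdh7* (BH-protocadherin, of brain and heart, chr14:55072200-55081551, minus strand) had another pattern, at 40.2, 34.0 and 36.1 TPM in Fb-Epn, 16.0, 15.6 and 18.0 in Fb-Par, and 31.4, 38.1 and 36.0 in Fb-Skn. Here Fb-Par was lower than Fb-Epn by 2.24-fold (adjusted p = 2.6e-08) and than Fb-Skn by 2.36-fold (adjusted p = 1.1e-08), and the others overlapped (-0.07 ± 0.0785, adjusted p = 0.45). *Pcdh9* (chr15:77733402-77736892, minus strand) had 9, 9 and 4 counts for Fb-Epn, 18, 16 and 12 for Fb-Par and 0 for every Fb-Skn library, which makes it at least 2.31-fold and 5.03-fold higher in the nerve types than in Fb-Skn (adjusted p = 0.00081 and 6e-05). The call for Fb-Epn was lost under 1 of 18 alternatives. Fb-Epn against Fb-Par was not called (-1.09 ± 0.44, adjusted p = 0.057).

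Among the delta-2 protocadherins, *Pcdh19*, the X-linked gene whose loss causes an epilepsy of females (chrX:104391607-104493757, minus strand), read 11.7, 11.9 and 10.7 TPM in Fb-Epn, 31.0, 28.0 and 31.9 in Fb-Par, and 3.38, 4.75 and 3.51 in Fb-Skn. The order Fb-Par, Fb-Epn, Fb-Skn held without overlap, at 2.82 ± 0.108 for Fb-Par over Fb-Skn (adjusted p = 1.5e-11), 1.42 ± 0.115 for Fb-Epn over Fb-Skn (adjusted p = 8.5e-08) and -1.40 ± 0.0938 for Fb-Epn against Fb-Par (adjusted p = 1.1e-08). *Pcdh18* (chr2:138819960-138833933, minus strand) was the single tested member called higher in Fb-Skn than in both nerve types, with 14.4, 13.7 and 16.4 TPM against 11.8, 11.1 and 10.7 in Fb-Epn and 11.5, 13.5 and 12.7 in Fb-Par. The differences were small, at -0.54 ± 0.0860 and -0.39 ± 0.0854 (adjusted p = 8.9e-05 and 0.0013), and the second call was lost under 3 of 20 alternatives, all limma fits (adjusted p of 0.026 to 0.072). *Pcdh17* (chr15:67555835-67645088, plus strand) had 3, 8 and 12 counts for Fb-Epn, 9, 14 and 15 for Fb-Par and 0 for every Fb-Skn library, at least 2.42-fold and 4.22-fold above Fb-Skn (adjusted p = 0.0020 and 0.00038). The call for Fb-Epn was lost under 2 of 18 alternatives. *Pcdh8* had a total of 1 count over the 9 libraries and *Pcdh10* at most 5 in any.

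The long or divergent members held *Pcdh20* and *Cdh23*. *Pcdh20* (chr15:71772777-71779033, minus strand) read 8.80, 9.49 and 9.16 TPM in Fb-Epn, 16.8, 19.2 and 15.6 in Fb-Par, and 3.37, 3.57 and 3.10 in Fb-Skn, again in the order Fb-Par, Fb-Epn, Fb-Skn without overlap. It was 4.62-fold and 2.48-fold above Fb-Skn in Fb-Par and Fb-Epn (adjusted p = 1.4e-10 and 9.1e-08), and 1.86-fold higher in Fb-Par than Fb-Epn (adjusted p = 1.2e-06). *Cdh23*, the upper part of the tip link of hair cells (chr20:29857637-29990111, minus strand), had 15, 13 and 5 counts for Fb-Epn, 27, 22 and 17 for Fb-Par and 0 for every Fb-Skn library, at least 3.47-fold and 7.19-fold above Fb-Skn (adjusted p = 0.00031 and 2.8e-05). The call for Fb-Epn was lost under 2 of 18 alternatives. Fb-Epn against Fb-Par was not called (-1.03 ± 0.417, adjusted p = 0.058). *Cdh23* overlaps *Vsir* on the opposite strand, which had 296 to 364, 512 to 642 and 84 to 98 counts in the same types, and how strand entered the counting is not given in the sources used here. Its partner in the tip link, *Pcdh15*, had at most 4 counts in a library, and *Pcdh12*, known from endothelium, had 9 to 11 in Fb-Epn, 2 to 8 in Fb-Par and 2 in each Fb-Skn library. *Cdh17* and *Cdh26* stayed at or under 5 and 2 counts.

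**Figure D3:**
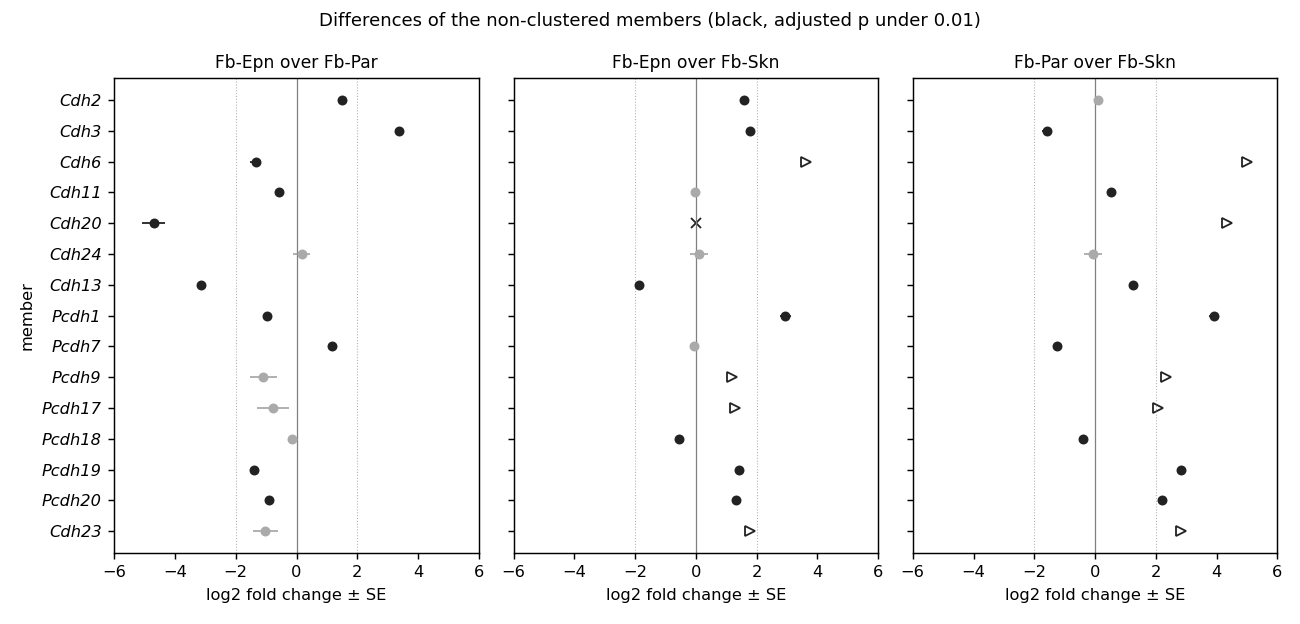
Points are log2 fold changes with their SE for the 15 non-clustered members in the 3 comparisons, black where the adjusted p was under 0.01 and grey elsewhere. Open triangles are lower bounds where all Fb-Skn libraries were at 0, the cross marks *Cdh20*, for which no fold is given, and dotted lines mark a log2 fold change of 2 and -2.

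Across the 15 tested non-clustered members, 14 were called in at least 1 comparison and *Cdh24* in none, where 62.6% of all tested genes were called in at least 1. Against Fb-Skn, 10 of them were higher in Fb-Epn and 10 in Fb-Par (23.0% and 23.2% of all tested genes), while 2 and 3 were lower (20.9% and 22.4%). The 5 members at 0 in Fb-Skn are among the higher ones in both counts and passed the filter through the nerve libraries alone. The pattern of 3 separate levels in the order Fb-Par, Fb-Epn, Fb-Skn, called in every comparison, was seen in *Cdh6*, *Pcdh1*, *Pcdh19* and *Pcdh20*, and also in *Cdh20*, whose Fb-Epn counts were at the floor.

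The clustered protocadherins lay on chromosome 18 of rn6 between 29966245 and 30969361, in 36 rows, 32 of which were tested. Most rows are single exons of the size of a variable exon, from 2319 bases upward. *Pcdha13* spans 228692 bases with a counted length of 27070, and *Pcdhgc3* spans 55520 bases with a counted length of 5288, so these rows hold further exons. The *Pcdhgc3* row runs to 30969361, past the last of the other gamma rows at 30912592. Which of the further exons are the constant exons of the group was not determined here. Reads of constant exons would come from every isoform of their group. Near-identical stretches shared by neighbouring variable exons can divide reads between rows, and the levels of single rows are uncertain to that extent. There are 2 rows with the symbol *Pcdha4*, which were kept apart as ENSRNOG00000047174 and ENSRNOG00000050378.

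Most clustered rows were called in no comparison, though the median size of their fitted fold changes was no smaller than that of all tested genes. Of the 32 tested rows 12 were called in at least 1 comparison, against 62.6% of all tested genes, and 20 in none, and 1, *Pcdhb11* in Fb-Par against Fb-Skn, was DE. Their median absolute log2 fold change was 0.40, 0.47 and 0.36 in Fb-Epn against Fb-Par, Fb-Epn against Fb-Skn and Fb-Par against Fb-Skn, against 0.28, 0.33 and 0.34 for all tested genes. Such a median also grows with counting error, and many of these rows have few counts. In Fb-Epn against Fb-Par their SE ran from 0.0601 (*Pcdhgc3*) to 0.666 (*Pcdhb4*). Whether they differ as much as other genes was therefore not determined.

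**Figure D4:**
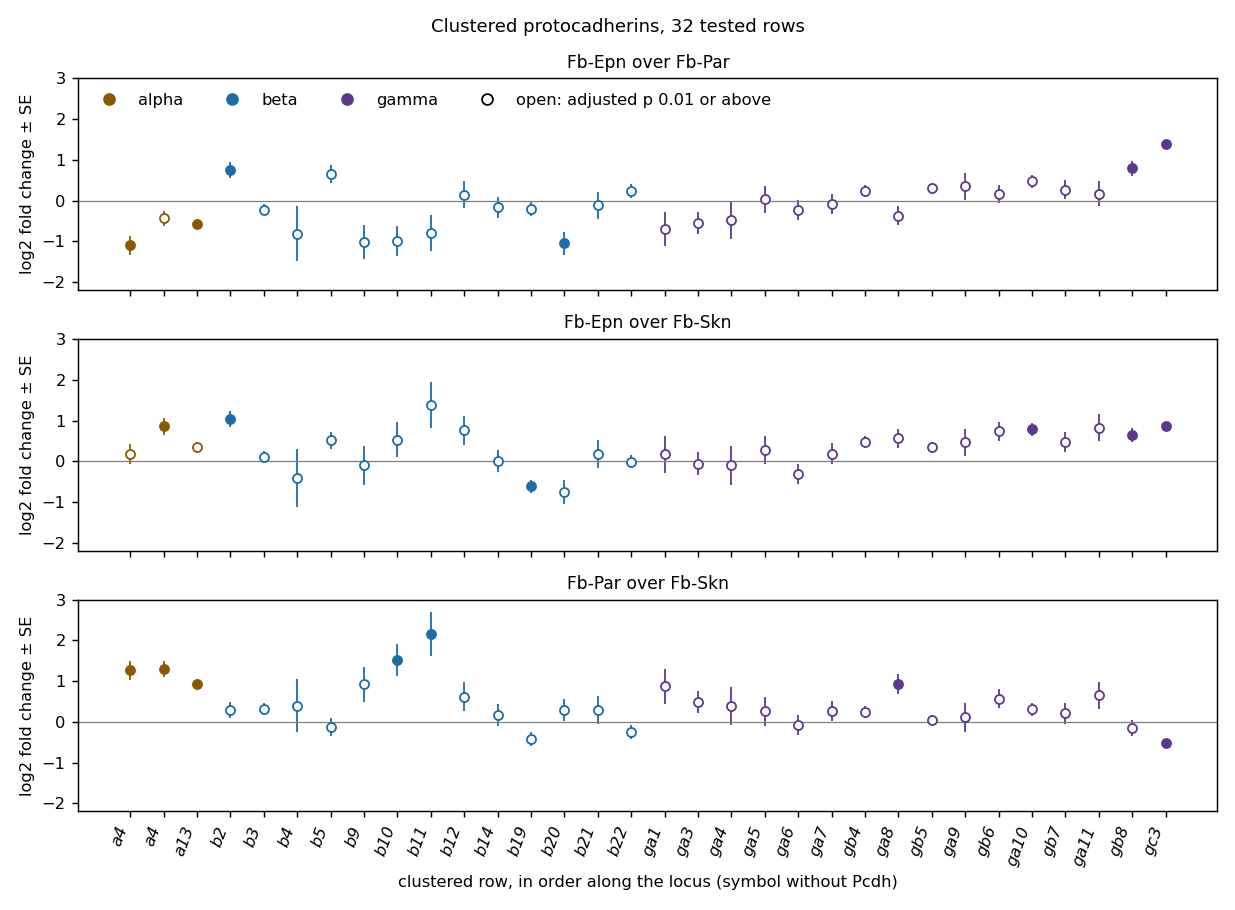
Log2 fold changes with their SE of the 32 tested clustered rows, in their order along the locus and coloured by group, for the 3 comparisons. Filled points had an adjusted p under 0.01, and in Fb-Par over Fb-Skn the 3 alpha rows are all filled and positive.

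All 3 alpha rows were higher in Fb-Par than Fb-Skn. *Pcdha13* read 1.58, 1.82 and 1.59 TPM in Fb-Epn, 2.48, 2.18 and 2.80 in Fb-Par, and 0.983, 1.28 and 1.28 in Fb-Skn, a 1.90-fold difference between Fb-Par and Fb-Skn (adjusted p = 9.2e-06). The *Pcdha4* rows differed by 2.46-fold (ENSRNOG00000047174, adjusted p = 9.3e-05) and 2.42-fold (ENSRNOG00000050378, adjusted p = 0.00033) in the same direction. Against Fb-Epn, *Pcdha13* and the second of these rows were higher in Fb-Par by 1.49-fold and 2.14-fold (adjusted p = 0.00071 and 0.0010).

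In the beta group 13 of 17 rows were tested, and their summed level was 42.1 TPM for Fb-Epn, 42.6 for Fb-Par and 35.4 for Fb-Skn. *Pcdhb2* was highest in Fb-Epn, at 10.3, 9.99 and 6.81 TPM against 4.95, 4.66 and 6.60 in Fb-Par and 3.98, 4.30 and 3.65 in Fb-Skn. The Fb-Epn libraries lay above all others, though the lowest of them only just, and the difference from Fb-Par (1.69-fold, adjusted p = 0.0047) lost its call under 8 of 20 alternatives. *Pcdhb11* had 22, 22 and 13 counts in Fb-Par against 2, 7 and 2 in Fb-Skn, with 6, 15 and 13 in Fb-Epn. The first pair did not overlap, with a 4.48-fold difference (adjusted p = 0.0030), and *Pcdhb10* differed by 2.87-fold in the same direction (adjusted p = 0.0050). The call of *Pcdhb11* was lost under 4 of 19 alternatives, without Fb-Par replicate 1 or 2 or Fb-Skn replicate 1 or 3 (adjusted p of 0.012 to 0.019). That of *Pcdhb10* was lost under 5 of 19, without Fb-Par replicate 2 or 3 or Fb-Skn replicate 1 or 2 (0.015 to 0.026) and with the replicate number as a block (0.010). *Pcdhb20* was 2.07-fold lower in Fb-Epn than Fb-Par (adjusted p = 0.0066) and *Pcdhb19* 1.54-fold lower in Fb-Epn than Fb-Skn (adjusted p = 0.0060), calls that changed under 9 and 10 of 20 alternatives. The other 8 tested beta rows (*Pcdhb3*, *Pcdhb4*, *Pcdhb5*, *Pcdhb9*, *Pcdhb12*, *Pcdhb14*, *Pcdhb21* and *Pcdhb22*) had means from 0.489 TPM (*Pcdhb4* in Fb-Epn) to 6.40 TPM (*Pcdhb3* in Fb-Par) and no call in any comparison. *Pcdhb6*, *Pcdhb7* and *Pcdhb8* were untested, at no more than 5, 9 and 3 counts.

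In the gamma group 16 of 16 rows were tested. *Pcdhgc3* stood apart, at 99.8, 98.0 and 104.6 TPM in Fb-Epn, 40.3, 35.0 and 41.6 in Fb-Par, and 46.1, 53.3 and 51.1 in Fb-Skn. The types did not overlap, and Fb-Epn was 2.60-fold above Fb-Par (adjusted p = 8.3e-11) and 1.83-fold above Fb-Skn (adjusted p = 1.2e-08), with Fb-Par 1.43-fold below Fb-Skn (adjusted p = 5.6e-06). The other 15 rows, which are variable exons by their size, summed to 78.4, 71.3 and 52.2 TPM, in ranges of 73.4 to 86.4, 66.2 to 74.4 and 49.3 to 53.7. The ratio of the *Pcdhgc3* row to this sum was 1.29 ± 0.122 for Fb-Epn, 0.546 ± 0.0160 for Fb-Par and 0.959 ± 0.0286 for Fb-Skn. Of these 15 rows, *Pcdhgb8* was higher in Fb-Epn than Fb-Par (1.73-fold, adjusted p = 0.0020, or 0.016 without Fb-Epn replicate 1) and Fb-Skn (1.55-fold, adjusted p = 0.0077, a call that changed under 11 of 20 alternatives), and *Pcdhga8* higher in Fb-Par than Fb-Skn (1.91-fold, adjusted p = 0.0042, lost without Fb-Par replicate 2 or 3 or Fb-Skn replicate 1 or 2 at 0.010 to 0.024). *Pcdhga10* read 12.1, 11.1 and 9.53 TPM in Fb-Epn, 8.76, 8.21 and 6.89 in Fb-Par, and 5.40, 5.22 and 6.73 in Fb-Skn, and its Fb-Epn libraries lay above all others, by 1.71-fold over Fb-Skn (adjusted p = 0.00063). Its difference between Fb-Epn and Fb-Par was not called (0.47 ± 0.15, adjusted p = 0.018). The most abundant variable rows, *Pcdhgb4* and *Pcdhgb5*, had means of 13.6 and 12.4 TPM in Fb-Epn, 11.6 and 10.2 in Fb-Par, and 8.85 and 8.91 in Fb-Skn, with no call in any comparison. *Pcdhgb4* read 13.6, 12.2 and 15.1 TPM in Fb-Epn, 14.3, 10.3 and 10.3 in Fb-Par, and 8.25, 8.66 and 9.64 in Fb-Skn. Its Fb-Epn and Fb-Skn libraries did not overlap, but the difference fell short of the threshold (0.48 ± 0.146, adjusted p = 0.012) and passed it under 8 of 20 alternatives. *Pcdhgb5* read 13.0, 12.6 and 11.6 TPM in Fb-Epn, 10.9, 8.71 and 10.9 in Fb-Par, and 8.12, 9.56 and 9.04 in Fb-Skn. It differed by 0.34 ± 0.125 between Fb-Epn and Fb-Skn (adjusted p = 0.031), also without overlap, and passed the threshold under 3 of 20 alternatives. The other 10 rows without a call (*Pcdhga1*, *Pcdhga3*, *Pcdhga4*, *Pcdhga5*, *Pcdhga6*, *Pcdhga7*, *Pcdhga9*, *Pcdhga11*, *Pcdhgb6* and *Pcdhgb7*) had means from 0.915 TPM (*Pcdhga1* in Fb-Skn) upward to 6.72 TPM (*Pcdhgb6* in Fb-Epn).

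**Figure D5:**
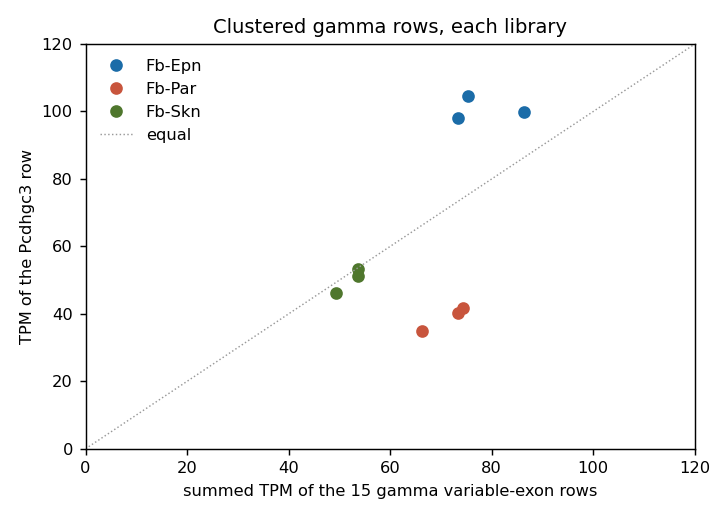
Each point is 1 library, with the summed TPM of the 15 gamma variable-exon rows on the x axis and the TPM of the *Pcdhgc3* row on the y axis, and a dotted line where they are equal. The Fb-Epn points lie above the line, the Fb-Par points far below it and the Fb-Skn points close under it.

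The short core CGCT, which recurs in clustered protocadherin promoters, was searched in the RefSeq windows. Of the 67 member symbols 49 had a window, 27 of them clustered. On the gene's strand CGCT was held by 25 of the 27 clustered windows (92.6%), by 16 of 22 windows of the other members (72.7%) and by 44.6% of all windows. With its reverse complement counted, the shares were 92.6%, 86.4% and 60.9%.

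The partners of cadherins were measured as lists, whose counts of calls can be read against the shares of all tested genes. These were 20.2% higher and 18.6% lower in Fb-Epn than Fb-Par, 23.0% and 20.9% for Fb-Epn against Fb-Skn, and 23.2% and 22.4% for Fb-Par against Fb-Skn. Of the catenins and linkers, 10 were tested, and 4 were higher and 3 lower in Fb-Epn than Fb-Par, 3 higher and 5 lower than in Fb-Skn, and 4 higher and 5 lower in Fb-Par than Fb-Skn (medians 0.13, -0.26 and -0.19). *Ctnnb1*, the beta-catenin that binds classical cadherin tails, was at 301.8, 276.9 and 245.8 TPM in the 3 types. *Jup* (plakoglobin), its relative, was at 38.8, 97.8 and 50.8 TPM, and lower in Fb-Epn than Fb-Par (log2 fold change of -1.32, adjusted p = 1.1e-11). *Ctnnd2* (delta-catenin), which binds the juxtamembrane part of classical cadherins, was DE, at 8.52 TPM in Fb-Skn against 0.0995 and 0.0871 in Fb-Epn and Fb-Par (adjusted p = 2.1e-09 and 1.8e-09).

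Of the atypical and desmosomal cadherins 13 were tested, with 3 higher and 4 lower in Fb-Epn than Fb-Par, 3 higher and 4 lower than in Fb-Skn, and 6 higher and 4 lower in Fb-Par than Fb-Skn (medians -0.69, 0.34 and 0.32). *Fat1*, a giant cadherin of cell contacts and polarity, was the most abundant at 187.2, 331.4 and 241.7 TPM. *Dchs1*, the ligand of *Fat4*, was at 14.1 TPM for Fb-Epn, 1.00 for Fb-Par and 8.49 for Fb-Skn, so that Fb-Par was lower than Fb-Epn and Fb-Skn (log2 fold changes of 3.82 for Fb-Epn over Fb-Par and -3.22 for Fb-Par against Fb-Skn, adjusted p = 8.0e-13 and 6.1e-12). *Celsr2*, a flamingo cadherin of planar polarity, was at 0.968, 3.44 and 0.0597 TPM, in the order of *Pcdh19*. *Clstn2*, a calsyntenin of synapses, was at 0.570, 4.28 and 0.234 TPM, higher in Fb-Par than Fb-Epn (-2.90 for Fb-Epn against Fb-Par, adjusted p = 2.5e-05) and than Fb-Skn (3.94, adjusted p = 4.0e-06). *Cdhr2*, a protocadherin of the brush border, was at 0.770, 3.25 and 2.73 TPM and DE in Fb-Epn against Fb-Par (-2.05, adjusted p = 2.1e-06). *Celsr1*, at 0.217, 0.353 and 0.0587 TPM, was DE in Fb-Par against Fb-Skn (2.35, adjusted p = 0.0072). The desmosomal *Dsg2* was at 1.31 TPM in Fb-Skn and near 0 in both nerve types, and *Dsc3* at 0.647 and 1.67 TPM in Fb-Epn and Fb-Skn and at 0 in Fb-Par.

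Of the 7 tested genes of cadherin cleavage and turnover, 2 were higher and 2 lower in Fb-Epn than Fb-Par, 3 higher and 2 lower than in Fb-Skn, and 3 higher and 1 lower in Fb-Par than Fb-Skn (medians -0.06, 0.21 and 0.35). *Adam10*, the sheddase of *Cdh2* and of gamma protocadherins, was at 50.5, 71.2 and 39.6 TPM. The metalloproteinase *Mmp3* was at 0.990, 0.187 and 18.4 TPM, highest in Fb-Skn (-4.36 for Fb-Epn and -6.63 for Fb-Par against Fb-Skn, adjusted p = 4.6e-08 and 6.5e-09) and DE between the nerve types (2.26, adjusted p = 0.0085). *Mmp7* was at 7.87, 0.0547 and 0.228 TPM, DE in Fb-Epn against both others (adjusted p = 1.2e-06 and 4.2e-06), with 54, 50 and 34 counts in Fb-Epn against 1, 0 and 0 in Fb-Par and 3, 0 and 1 in Fb-Skn. The 6 repressors of *Cdh1* were all expressed, from 16.1 TPM (*Snai2* in Fb-Epn) to 142.7 TPM (*Twist2* in Fb-Skn), in the libraries where *Cdh1* had at most 6 counts. In Fb-Epn 1 was higher and 3 lower than in Fb-Par, 2 higher and 3 lower than in Fb-Skn, and in Fb-Par 2 were higher and 3 lower than in Fb-Skn (medians -0.37, -0.27 and -0.06). Of the 9 genes of CTCF, cohesin and their regulators, which shape promoter choice in the clustered locus, 1 was higher and 0 lower in Fb-Epn than Fb-Par, 7 higher and 0 lower than in Fb-Skn, and 6 higher and 1 lower in Fb-Par than Fb-Skn (medians 0.08, 0.41 and 0.28). *Rad21*, a cohesin subunit, was at 121.2, 71.0 and 81.9 TPM and was the gene called higher in Fb-Epn than Fb-Par. All other genes of this list had their lowest mean TPM in Fb-Skn, a scale on which the median tested gene was also lower there. In the edgeR fit *Smc1a* was at -0.05 in Fb-Par against Fb-Skn (adjusted p = 0.62), and *Ctcf* was called in no comparison. A link of these genes to the clustered rows was not tested.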

How the data were processed

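RNA from 9 libraries, 3 per type of fibroblast, was sequenced by the authors from poly(A) directional libraries as paired reads of 150 bp. The submitters' processing notes name FastQC 0.11.7, Trimmomatic 0.38, HISAT2 2.1.0, featureCounts 1.6.3 and the genome rn6, while the gene annotation and whether counting used strand are not given in the sources used here. The authors deposited raw counts per gene, TPM and FPKM. The deposited counts were tested, the deposited TPM are printed as levels, and the deposited FPKM, which are not a rescaling of the counts, served an alternative.

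Counts were fitted in R 4.3.3 with edgeR 4.0.16 (TMM, filterByExpr, glmQLFit and glmQLFTest, 1 model over all 9 libraries with 3 contrasts) and adjusted by Benjamini-Hochberg over all 13273 tested genes. The common biological coefficient of variation was 8.25%, and TMM factors were 0.955 to 1.03. Alternatives used DESeq2 1.42.0, limma 3.58.1 on log2(TPM + 1), log2(TPM + 0.1) or log2(FPKM + 1), other scalings and filters, each library left out, and a threshold of 0.05. The scripts were tested on simulated counts. Replicates of a type differed by more than counting noise (chi-square per degree of freedom of 3.31 to 5.48), so none was merged. Every tested member was named, with the TPM or counts of each library where its mean reached 10 TPM in a type or it was DE. Not every comparison of these members is printed. Members and gene lists were chosen with earlier results of these data known. A count of 0 allows up to 3 counts, for counting error only. A gene of the Schwann cell list is not reported here and was left out of its sums.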

Additional observations from a re-analysis of the deposited data

How the results depend on the processing

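There were 141 differences of tested members (47 members in 3 comparisons). Of these, 118 kept their side of the 0.01 threshold under every alternative fit that could be run. The threshold of 0.05 is not counted among the alternatives here, and more differences were called with it. In Fb-Epn against Fb-Par it gave 8 members higher and 11 lower, against 6 and 10 at 0.01. The fitted sign changed under at least 1 alternative for 23 differences, 0 of them called. A different set of 23 crossed the threshold under at least 1 alternative, led by *Cdh20* (12 of 18), *Pcdhgb8* (11 of 20) and *Pcdhb19* (10 of 20), all in Fb-Epn against Fb-Skn. DE members lower in Fb-Epn than Fb-Par numbered 1 with limma on log2(FPKM + 1) and 1 with a filter of 10 counts in each library. DE members higher in Fb-Epn than Fb-Skn numbered 1 with limma on log2(TPM + 1), 3 on log2(TPM + 0.1), 0 on log2(FPKM + 1), 1 with the filter of 10 counts and 2 with only the types compared in the fit. Members higher in Fb-Par than Fb-Skn numbered 9 with the filter of 10 counts, and DE members among them 5 on log2(TPM + 1), 3 on log2(FPKM + 1) and 3 with that filter. The filter tests 36 members and drops every member at 0 in Fb-Skn, the fit of only Fb-Epn and Fb-Skn tests 39, and a pseudocount shrinks folds of low genes by construction. The FPKM alternative was added after seeing the files. Leaving out each library gave 4 to 6 members higher and 9 to 10 lower in Fb-Epn than Fb-Par, with 1 and 2 DE, 12 to 15 higher and 2 to 3 lower in Fb-Epn than Fb-Skn, with 5 to 6 and 0 DE, and 13 to 16 higher and 4 lower in Fb-Par than Fb-Skn, with 8 to 9 and 0 DE.

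Replicate numbers did not pair the libraries, since deviations of same-numbered libraries correlated between -0.0804 and 0.0198. With the replicate number as a block, 5 calls were lost, and the members higher and lower numbered 5 and 10 in Fb-Epn against Fb-Par, 13 and 2 in Fb-Epn against Fb-Skn, and 15 and 4 in Fb-Par against Fb-Skn. DE members under the block numbered 1 and 2, 5 and 0, and 9 and 0. Members with few counts, such as *Pcdh9*, *Pcdh17* and *Cdh23*, are limited by depth.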
